A study of Mus musculus with 16 samples.

Results

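The 9 genes described here are genes of calcium storage, release, reuptake and extrusion in muscle cells: Asph, Trdn, Casq1, Casq2, Ryr2, Jph2, Atp2a2, Pln and Slc8a1. Every probe annotated to 1 of these symbols was taken, which gave 24 of the 25697 probes and 9 of the 16593 named genes on the array, and the 14 probes of Asph were kept apart from each other. The genes were chosen by the genotype differences that their probes, above all those of Asph, show on these same arrays, so their differences between genotypes are given as a description and without a test, and the tests below concern sex and the interaction of sex with genotype.

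RNA of pulverized cardiac tissue was hybridised from 4 female and 4 male cs-ERα−/− mice and from 4 female and 4 male WT mice, 1 Illumina MouseRef-8 array per mouse. The methods do not name the part of the heart that was used. All were C57BL/6 mice of 18 weeks. Both genotypes carry the floxed allele of exon 3 of ERα, and the cs-ERα−/− mice also carry Cre recombinase under the α-MHC promoter, which is active in cardiomyocytes, whereas the WT mice are described as ERα flox/flox with no mention of Cre. The methods name no Cre-carrying mice with intact ERα, so effects of Cre and of the deletion cannot be told apart. Esr1, the deleted gene, was detected on 0 of 16 arrays by either of its 2 probes, so the deletion itself is not checked by these arrays. A single heart, female cs-ERα−/− replicate 4, stood apart by some atrial genes. It read 11.47 for Sln, the sarcolipin that restrains SERCA, and 10.13 for Myl7 and 13.08 for Myl4, atrial myosin light chains. No other heart was above 5.51, 5.64 and 10.20, each the value of female WT replicate 1. Not every atrial gene was high in female cs-ERα−/− replicate 4: Nppa read 14.57, the lowest of the 8 cs-ERα−/− hearts. Values without that cs-ERα−/− heart are given below.

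In the heart muscle cell, calcium that enters through the L-type channel opens the ryanodine receptor RyR2 in the facing membrane of the sarcoplasmic reticulum, and the calcium released there starts contraction. The release channel works in a complex with triadin and junctin, which tie it to the calcium-binding protein calsequestrin inside the store, and junctophilin holds both membranes close together. Relaxation follows as SERCA2, restrained by phospholamban, pumps calcium back and the sodium-calcium exchanger NCX1 carries the rest out of the cell. Asph is an unusual gene: by alternative promoters and splicing it encodes aspartyl β-hydroxylase as well as junctin and junctate, which lack the enzyme domain.

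A probe counted as detected where its detection p, which sets it against the array's own negative controls, was under 0.05, and it was tested where 3 or 4 arrays of some group met that. Of the 24 probes, 19 in 7 genes passed, 12 of them detected on all 16 arrays. Trdn, which encodes triadin, and Casq1, the calsequestrin of skeletal muscle, have 1 probe each, and both were detected on 0 of 16 arrays. Casq2, the calsequestrin of the heart, was detected on all 16. Among the 14 probes of Asph, 4 were detected on all 16 arrays, 7 others were tested, and 3 were not, with ILMN_2671843 detected on 3 of 8 cs-ERα−/− and 3 of 8 WT arrays and ILMN_1235836 and ILMN_2601196 on none. For 4 Asph probes the filter was met in cs-ERα−/− hearts alone, ILMN_2594584 in females, ILMN_2609988 and ILMN_2741446 in males and ILMN_2610012 in both sexes, so the filter itself favored a higher signal there.

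**Figure D1:**
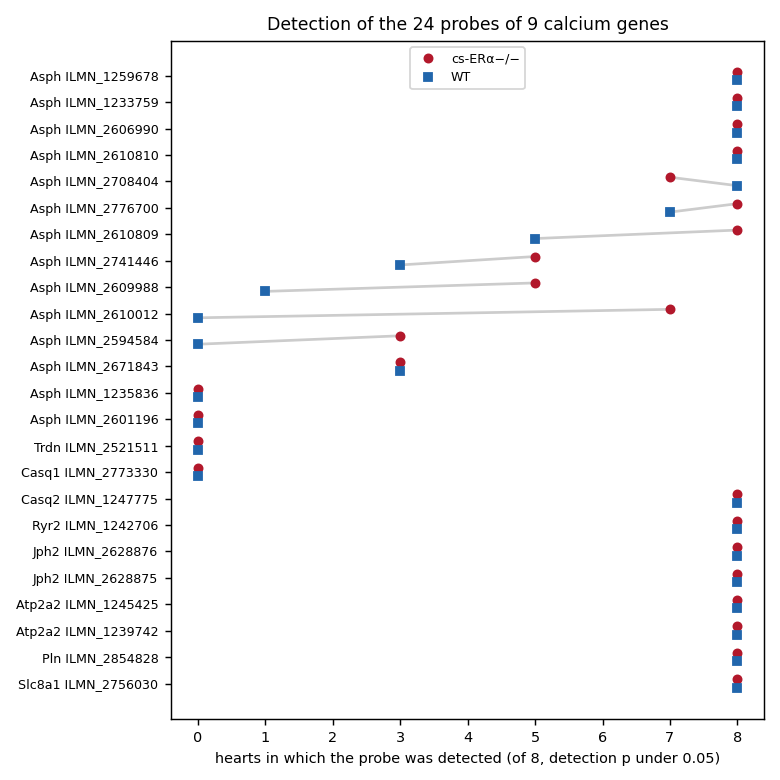
Number of hearts, of 8 cs-ERα−/− (circles) and 8 WT (squares), in which each of the 24 probes was detected at a detection p under 0.05. The probes of Ryr2, Casq2, Jph2, Atp2a2, Pln and Slc8a1 sit at 8 for both genotypes, Trdn and Casq1 sit at 0, and ILMN_2610012 of Asph was detected in 7 cs-ERα−/− hearts and 0 WT hearts.

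The promoter windows of Casq1, Casq2 and Jph2 are shown because the calsequestrin pair lies at opposite ends of detection and because both Jph2 probes had lower signals in cs-ERα−/− hearts. Each is 300 bases of the mouse genome (RefSeq, GRCm38.p6), 250 before to 50 after the annotated start, 5′ to 3′ along the gene. Capitals mark the half-site of the estrogen response element, GGTCA or on the other strand TGACC, in Casq1 and Jph2, and a match to the MEF2 consensus, the site of a muscle transcription factor family, in Casq2.
Casq1, chr1:172219846-172220145, minus strand: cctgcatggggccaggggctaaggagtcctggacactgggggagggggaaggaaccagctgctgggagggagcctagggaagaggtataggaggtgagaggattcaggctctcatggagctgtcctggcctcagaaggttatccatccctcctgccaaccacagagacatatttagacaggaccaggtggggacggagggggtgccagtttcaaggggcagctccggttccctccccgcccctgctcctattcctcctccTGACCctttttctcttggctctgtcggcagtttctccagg
Casq2, chr3:102086165-102086464, plus strand: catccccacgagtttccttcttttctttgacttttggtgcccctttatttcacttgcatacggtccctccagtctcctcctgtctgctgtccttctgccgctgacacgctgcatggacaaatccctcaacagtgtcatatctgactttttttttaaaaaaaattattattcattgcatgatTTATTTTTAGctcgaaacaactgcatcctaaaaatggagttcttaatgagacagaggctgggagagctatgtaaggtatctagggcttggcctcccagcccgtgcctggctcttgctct
Jph2, chr2:163397944-163398243, minus strand: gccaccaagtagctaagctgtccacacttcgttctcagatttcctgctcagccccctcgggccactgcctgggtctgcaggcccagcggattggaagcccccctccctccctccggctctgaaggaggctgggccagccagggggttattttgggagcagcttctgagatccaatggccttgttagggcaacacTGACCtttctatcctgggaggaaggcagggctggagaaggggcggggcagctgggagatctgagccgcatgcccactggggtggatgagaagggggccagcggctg
The half-site occurs on either strand in 40.5% of the 32851 windows of this length and the MEF2 consensus in 3.19%. The full element GGTCANNNTGACC occurs in 0.07% and in none of the 7 windows that the table lists for 6 of the 9 genes. Ryr2 also holds 1 half-site, as does the second, overlapping window of Jph2, while Pln and Slc8a1 hold neither motif. A match to these letters is a description of the sequence and not a measured binding site.

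Asph lies on chromosome 4 (9449085 to 9669344 in GRCm38.p6), where RefSeq lists 11 curated transcripts. Of its 14 probes, 13 are annotated to the transcript NM_023066 and 1, ILMN_1259678, to NM_133723. Which protein form each probe reports is not given in the sources used here. Signals below are log2 values after background correction and quantile normalization, and differences are cs-ERα−/− minus WT, averaged over the sexes, with the standard error of the fit.

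ILMN_1259678 read 10.43, 10.53, 10.47 and 10.63 in female cs-ERα−/− hearts and 10.78, 10.57, 10.69 and 10.64 in male cs-ERα−/− hearts, against 10.90, 10.93, 10.66 and 10.68 in female WT hearts and 11.00, 10.91, 10.73 and 11.05 in male WT hearts. Its mean was 10.59 ± 0.12 in cs-ERα−/− mice and 10.86 ± 0.15 in WT mice (SD, n = 8 each), a difference of -0.27 (standard error 0.05). All 4 female cs-ERα−/− hearts lay below all 4 female WT hearts, as 5.99% of all tested probes do not overlap in females, whereas in males 1 cs-ERα−/− heart lay above the lowest WT heart. The difference was -0.28 (standard error 0.08) in females and -0.25 (standard error 0.08) in males.

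ILMN_2610012 differed in the other direction. It read 5.22, 5.53, 5.54 and 5.58 in female cs-ERα−/− hearts and 5.62, 5.58, 5.77 and 5.67 in male cs-ERα−/− hearts, against 5.07, 5.05, 4.85 and 5.30 in female WT hearts and 4.96, 4.89, 4.75 and 5.10 in male WT hearts. Only 1 cs-ERα−/− heart, a female, was as low as the highest WT heart, and in males the genotypes did not overlap, as is true of 6.88% of all tested probes there. The mean was 5.56 ± 0.16 in cs-ERα−/− mice and 5.0 ± 0.17 in WT mice (SD, n = 8 each), a difference of 0.57 (standard error 0.10). Because the probe was detected in 7 of 8 cs-ERα−/− hearts and 0 of 8 WT hearts, its WT level is only bounded. Set against the lowest signal of a detected probe on each WT array, the cs-ERα−/− mean was 1.08-fold higher. That mean includes the undetected cs-ERα−/− heart, so the fold is no strict lower bound, and the filter favored this direction. With the authors' spline-normalized values the difference was 0.89 in place of 0.57. The number of probes detected per array moved with genotype as well, from 11882 up to 12610 in cs-ERα−/− hearts and from 11492 up to 11981 in WT hearts, and its part in the detection of this probe was not tested.

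The other Asph probes differed in both directions. Over all 11 tested Asph probes 8 differences were positive and 3 negative, and for some of these probes the filter itself favored a positive difference. ILMN_2776700, detected in 8 of 8 cs-ERα−/− and 7 of 8 WT hearts, had a mean of 5.96 ± 0.19 in cs-ERα−/− mice and 5.65 ± 0.26 in WT mice (SD, n = 8 each). Its male cs-ERα−/− hearts, at 6.24, 6.24, 5.87 and 6.00, all lay above the male WT hearts at 5.74, 5.52, 5.43 and 5.63. In males 6.88% of all tested probes do not overlap between the genotypes. The female cs-ERα−/− hearts of ILMN_2776700, at 5.90, 5.90, 5.75 and 5.78, lay inside the range of the female WT hearts, at 5.89, 6.12, 5.32 and 5.53. ILMN_1233759, another of the 4 Asph probes detected on every array, differed by -0.13 (standard error 0.07), and the other two, ILMN_2606990 and ILMN_2610810, by 0.08 (standard error 0.08) and 0.00 (standard error 0.12). ILMN_2594584 was detected only in 3 female cs-ERα−/− hearts, at 5.80, 5.59 and 5.77, with the other female cs-ERα−/− heart at 5.24 and the female WT hearts at 5.40, 5.15, 4.89 and 5.36. Relative to the lowest signal of a detected probe on each female WT array, the female cs-ERα−/− mean was 1.12-fold higher. That mean includes the undetected heart at 5.24, so the fold is no strict lower bound. Only the female cs-ERα−/− group admitted the probe, so the filter favored this direction. Among males, where the probe was not detected, the difference was -0.12 (standard error 0.16). ILMN_2708404, ILMN_2610809, ILMN_2741446 and ILMN_2609988 differed by -0.12, 0.06, 0.05 and 0.11, each with a standard error of 0.12 to 0.15.

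**Figure D2:**
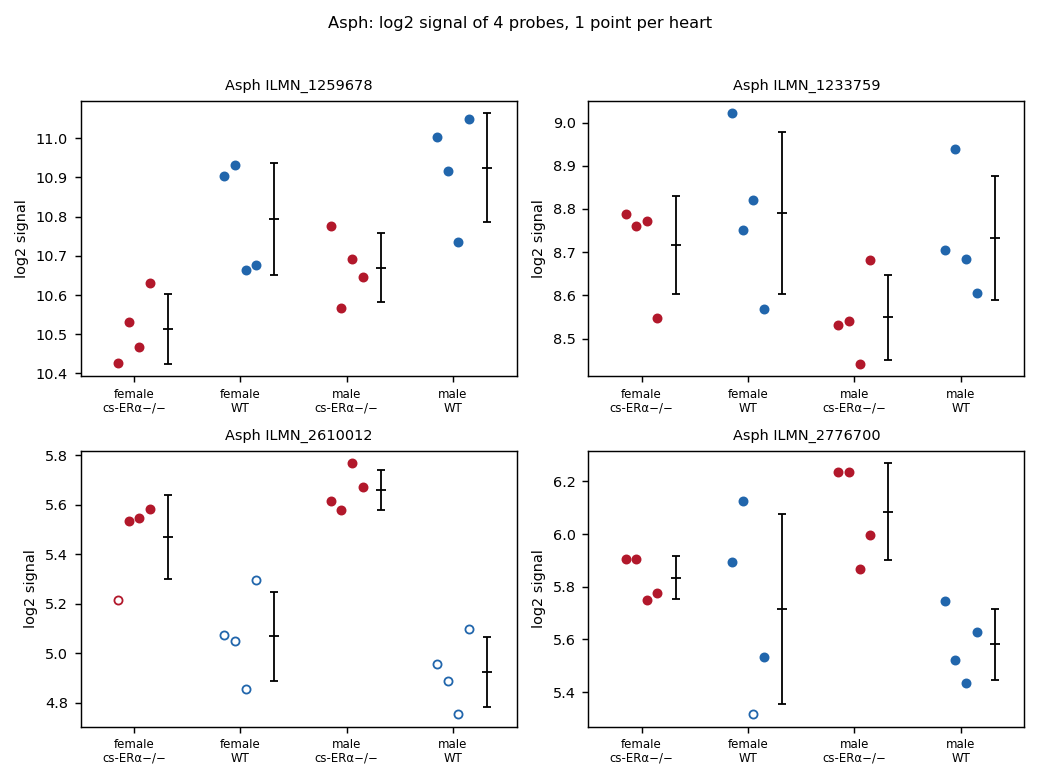
Log2 signal of 4 Asph probes in female and male cs-ERα−/− and WT hearts, 1 point per heart, filled where the probe was detected and open where it was not; bars give the mean ± SD of 4 hearts. ILMN_1259678 sits lower in cs-ERα−/− hearts (10.59 against 10.86 on average), and ILMN_2610012 higher (5.56 against 5.0), with no WT heart detected.

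Across the 16 hearts the Asph probes did not follow each other closely. Over the 55 pairs of tested Asph probes, Pearson's r ran from -0.58 to 0.78 with a median of 0.12, and from -0.51 to 0.85 with a median of 0.20 after the mean of each group was subtracted. Of the 11 tested Asph probes, 7 were not detected on all 16 arrays, and the part of noise near the detection limit in these r values was not tested. Probes of 1 transcript had an r of 0.44 for Atp2a2 and 0.69 for Jph2. Low r values are thus no evidence that the Asph probes mark different transcripts. The 2 probes with opposite genotype differences, ILMN_1259678 and ILMN_2610012, had an r of -0.52, and of 0.45 after group means were subtracted. Among probes of other genes, those most like ILMN_1259678 were Hjv, a co-receptor of BMP signaling known as hemojuvelin (r of 0.89, and 0.79 after group means were subtracted), the cytokine gene Il15 (0.85 and 0.79), Apmap (0.85 and 0.60), 1700123O20Rik (0.85 and 0.69) and Fitm1, a lipid droplet gene of muscle (0.85 and 0.63). Those most like ILMN_2610012 were Mybpc2, which binds myosin in fast fibers (0.91 and 0.34), the galectin Lgals3 (0.89 and 0.47), the metalloproteinase inhibitor Timp1 (0.87 and 0.21), Ctps (0.87 and 0.16) and Tspo (0.87 and 0.55). These r values rest on 16 hearts that share the genotype contrast.

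Of the partners of junctin in the release complex, Ryr2, the release channel itself (chromosome 13), read 6.38, 6.47, 6.15 and 6.68 in female and 6.46, 6.21, 6.30 and 7.15 in male cs-ERα−/− hearts, against 6.54, 6.79, 6.65 and 6.67 in female and 6.54, 6.78, 6.71 and 6.86 in male WT hearts. Male cs-ERα−/− replicate 4 was the highest of all 16, and 6 of the other 7 cs-ERα−/− hearts were below every WT heart. The difference was -0.22 (standard error 0.11), and the spread was wider in cs-ERα−/− hearts (6.48 ± 0.32) than in WT hearts (6.69 ± 0.12; SD, n = 8 each). Casq2, which stores the calcium that Ryr2 releases, differed by 0.06 (standard error 0.06), with 12.37 ± 0.17 in cs-ERα−/− mice and 12.31 ± 0.13 in WT mice (SD, n = 8 each). Its difference was -0.04 in females and 0.16 in males (standard error 0.08 each). The single probes of Casq1 and Trdn were not detected in either genotype, which does not show that either RNA is absent. Casq1 read 4.56 to 4.81 in cs-ERα−/− mice and 4.56 to 4.77 in WT mice, and Trdn read 4.53 to 4.81 in cs-ERα−/− mice and 4.71 to 5.06 in WT mice.

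Jph2, the junctophilin of the heart (chromosome 2), has 2 probes of 1 transcript, and both were lower in cs-ERα−/− hearts. ILMN_2628876 read 7.26, 7.52, 7.30 and 7.30 in female and 7.46, 7.47, 7.65 and 7.61 in male cs-ERα−/− hearts, against 7.68, 7.60, 7.71 and 7.40 in female and 7.82, 7.99, 7.64 and 7.87 in male WT hearts. ILMN_2628875 read 7.16, 7.04, 6.64 and 6.93 in female and 7.06, 6.88, 7.22 and 7.33 in male cs-ERα−/− hearts, against 7.47, 7.12, 7.33 and 7.09 in female and 7.23, 7.24, 7.27 and 7.41 in male WT hearts. The genotypes overlapped within each sex at both probes. The differences were -0.27 (standard error 0.07) and -0.24 (standard error 0.09), close to a fold of 0.83 and 0.85, and the probes had an r of 0.69 over the 16 hearts (0.44 after group means were subtracted). Within females the differences were -0.25 and -0.31 and within males -0.28 and -0.17.

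The genes of reuptake and extrusion differed by -0.02 to 0.09. Atp2a2, which encodes the pump SERCA2 (chromosome 5), has 2 probes, at 15.59 ± 0.05 in cs-ERα−/− mice and 15.61 ± 0.09 in WT mice for ILMN_1245425 and at 15.13 ± 0.07 and 15.06 ± 0.10 for ILMN_1239742 (SD, n = 8 each). The differences were -0.02 and 0.07 (standard error 0.04 each), at the top of the signal range, where only 0.0272% and 0.163% of all probes were brighter. Pln, which encodes the SERCA2 inhibitor phospholamban (chromosome 10), was at 12.03 ± 0.11 in cs-ERα−/− mice and 11.94 ± 0.15 in WT mice (SD, n = 8 each), a difference of 0.09 (standard error 0.06). Slc8a1, the exchanger NCX1 (chromosome 17), was at 12.01 ± 0.11 and 11.99 ± 0.06, a difference of 0.02 (standard error 0.04). The 95% intervals of these 4 differences ran from -0.10 to 0.06 and -0.02 to 0.15 for the Atp2a2 probes, from -0.03 to 0.22 for Pln and from -0.07 to 0.12 for Slc8a1.

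**Figure D3:**
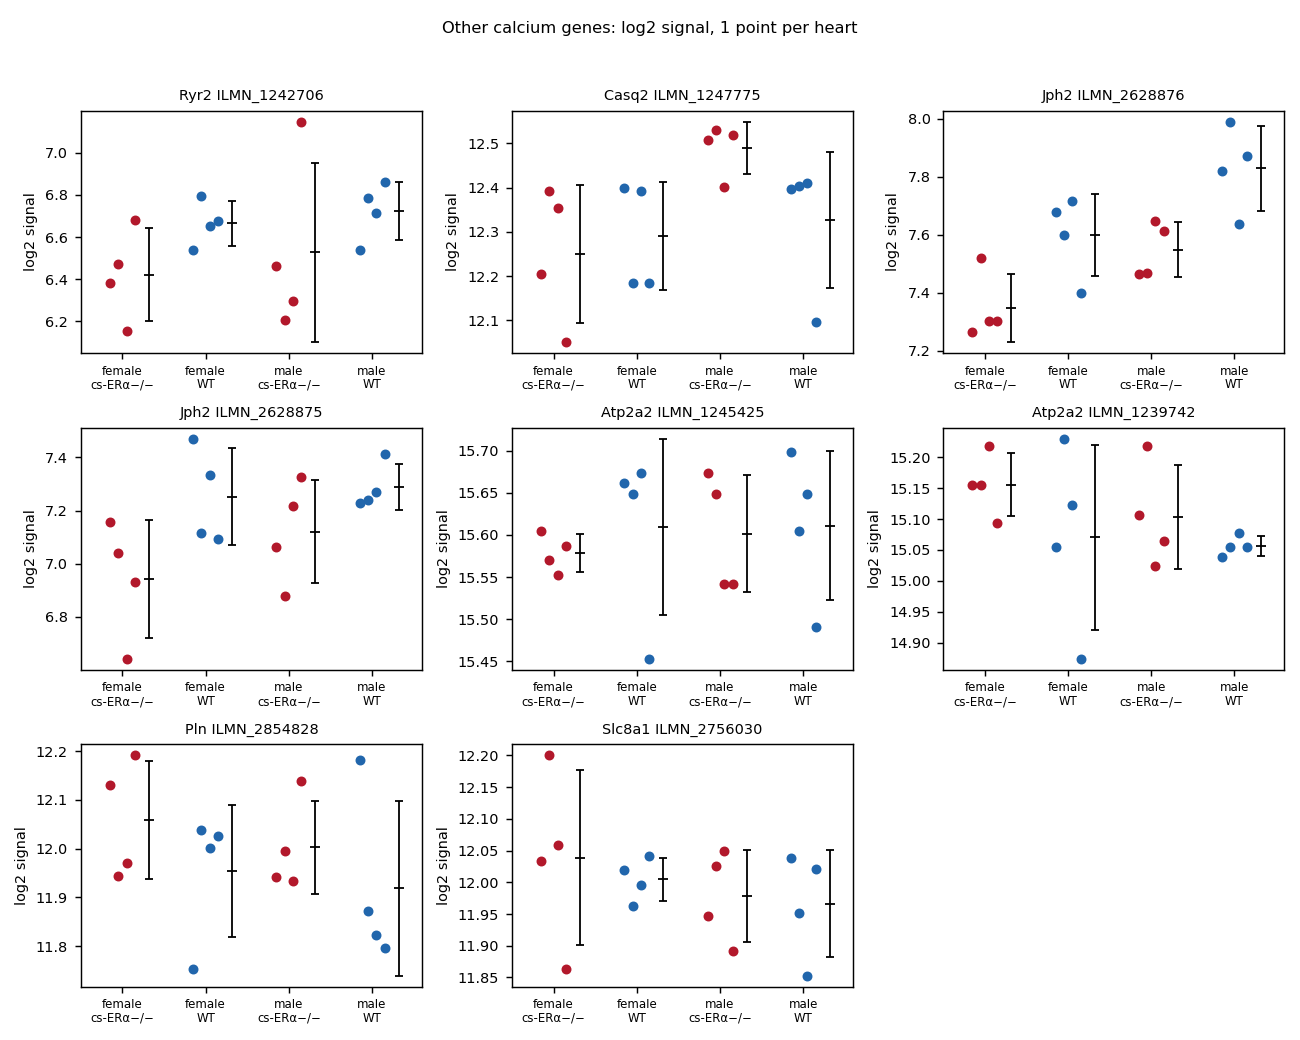
Log2 signal of the 8 tested probes of Ryr2, Casq2, Jph2, Atp2a2, Pln and Slc8a1 in the 4 groups, 1 point per heart, with the mean ± SD of 4 hearts. Both Jph2 probes sit lower in cs-ERα−/− hearts of each sex (differences of -0.27 and -0.24), while Slc8a1 differs by 0.02.

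Over the 19 tested probes the genotype differences ran from -0.27 to 0.57 with a median of 0.05, and over all 12246 tested probes the median was -0.01. The genes were chosen with this contrast known, so nothing is read from these values. Under other processing the difference was -0.30 to -0.26 for ILMN_1259678 and -0.27 to -0.22 for ILMN_2628876 (8 alternatives each) and 0.43 to 0.89 for ILMN_2610012 (7 alternatives, since it was no longer among the tested probes with the filter applied to every group). With any 1 array left out they ran from -0.30 to -0.24, from -0.30 to -0.24 and from 0.53 to 0.61. Without female cs-ERα−/− replicate 4, the heart with high Sln, Myl7 and Myl4, the differences were -0.29 for ILMN_1259678 and 0.55 for ILMN_2610012. They were -0.26 and -0.24 for the Jph2 probes, -0.26 for Ryr2 and 0.09 for Casq2, and ILMN_2594584 no longer met the filter.

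The sex contrast was not used to choose the genes. None of the 19 probes passed for female against male hearts (0 of 19 in limma, 5 at an unadjusted p under 0.05, among them ILMN_2594584, which met the filter only in female cs-ERα−/− hearts and from which nothing is read), where 1.27% of all tested probes passed, and 12.9% had an unadjusted p under 0.05. The lowest adjusted p was that of Jph2 ILMN_2628876, at 7.47 ± 0.18 in females and 7.69 ± 0.19 in males (SD, n = 8 each), which leaves -0.22 (standard error 0.07, 95% interval -0.36 to -0.07) between the sexes at an adjusted p of 0.161 from limma, and the second Jph2 probe differed by -0.11 (standard error 0.09). Casq2 was at 12.27 ± 0.13 in females and 12.41 ± 0.14 in males (SD, n = 8 each), which leaves -0.14 (standard error 0.06) at an adjusted p of 0.282 from limma. For Asph, ILMN_1259678 differed by -0.14 (adjusted p = 0.24) and ILMN_2708404 by -0.28 (adjusted p = 0.343, both from limma). Ryr2 differed by -0.08, Pln by 0.05, Slc8a1 by 0.05 and the Atp2a2 probes by -0.01 and 0.03, each with an interval that spans 0. No alternative processing and no fit without 1 array called any of these sex differences. Without female cs-ERα−/− replicate 4 they were -0.21 for Jph2 ILMN_2628876 and -0.10 for Casq2.

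For ILMN_1259678 of Asph and for ILMN_2628876 of Jph2, female cs-ERα−/− hearts were lowest on average, then male cs-ERα−/−, female WT and male WT hearts, and the middle pair differed by less than their spread for Jph2. The genotype difference in females minus that in males, the interaction, passed for 0 of 19 probes (1 at an unadjusted p under 0.05, ILMN_2594584 of Asph, admitted by 1 group alone as above), as for 0% of all tested probes, of which 3.72% had an unadjusted p under 0.05. It was -0.03 (standard error 0.11) for ILMN_1259678, 0.03 (standard error 0.14) and -0.14 (standard error 0.17) for the Jph2 probes and -0.20 (standard error 0.11) for Casq2, with an adjusted p of 0.999 each from limma.

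**Figure D4:**
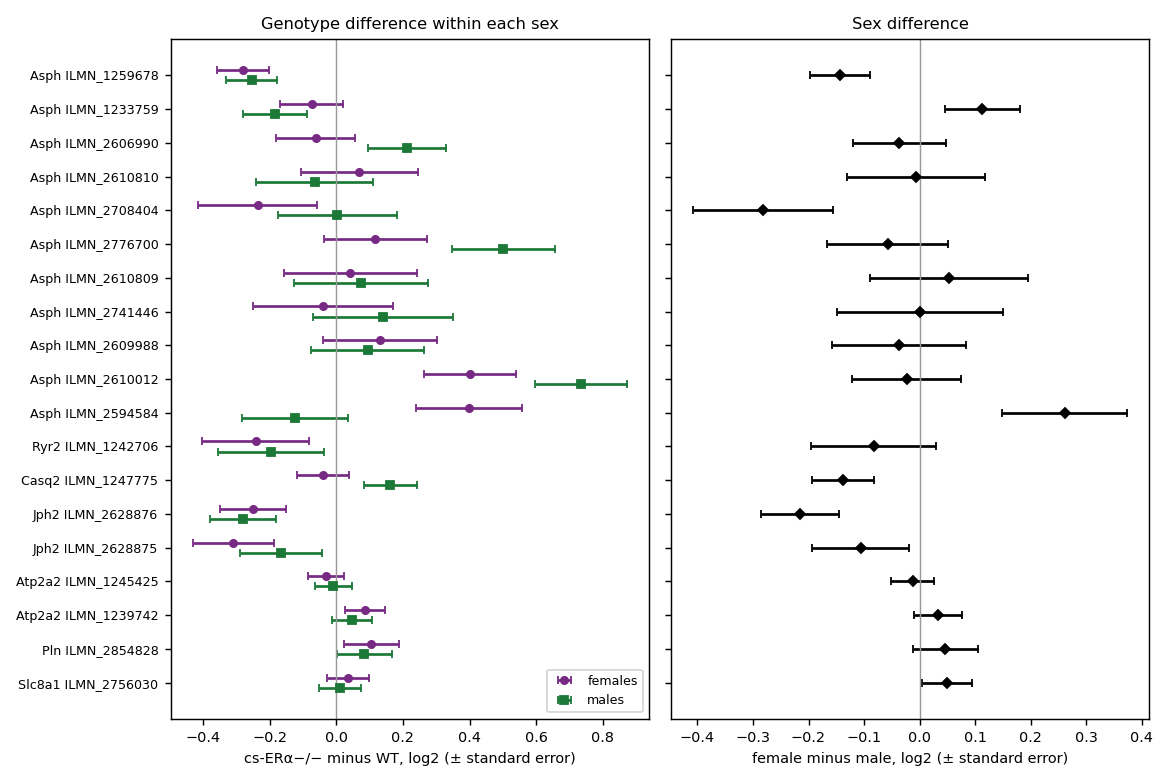
Left, difference of log2 signal between cs-ERα−/− and WT hearts in females (circles) and males (squares) for the 19 tested probes, with standard errors. Right, female minus male, taken over both genotypes; the Jph2 probe ILMN_2628876 sits at -0.22 and none of the 19 passed the test for sex.

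The 9 genes work among many others, and 75 further genes of cardiac calcium handling were listed, of which 67 have a probe and 54 were tested with 74 probes. Of these probes 3 passed as higher in cs-ERα−/− hearts and 0 passed as lower, and the median difference was -0.01. That is 4.05% of the 74, close to the 3.74% of all tested probes that passed (2.43% higher and 1.31% lower). The list was chosen with earlier results of these data known, so this share is a description. Of 26 tested genes of calcium entry and release, 2 passed, both higher. Cacna1h, a T-type calcium channel, read 8.55, 9.51, 8.74 and 8.71 in female and 8.58, 8.66, 8.95 and 8.50 in male cs-ERα−/− hearts, against 8.42, 8.43, 8.40 and 8.02 in female and 8.33, 8.35, 8.51 and 7.82 in male WT hearts. It rose by 0.49 (standard error 0.12, adjusted p = 0.0194 from limma), with an adjusted p of 0.0594 without the intensity trend and 0.111 in the ordinary linear model, and 0.0045 to 0.111 over its 8 alternatives. Ehd4, a membrane-shaping ATPase, rose by 0.19 (standard error 0.04, adjusted p = 0.0192 from limma), at 13.97 ± 0.11 in cs-ERα−/− mice and 13.78 ± 0.11 in WT mice (SD, n = 8 each). The difference was 0.30 in males, where all 4 cs-ERα−/− hearts (13.98 to 14.04) lay above all 4 WT hearts (13.62 to 13.89), and 0.08 in females (standard error 0.06 each), and the interaction of -0.22 did not pass (unadjusted p = 0.0225, adjusted p = 0.999 from limma). The call for Ehd4 ended with median scaling (0.59), without the trend (0.075), in the ordinary model (0.0647) and without male WT replicate 2 (0.051), in a range of 0.0148 to 0.59 over the 8 alternatives.

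Of 10 tested genes of uptake and extrusion, Atp2a1 alone passed. This SERCA1 pump of fast skeletal muscle read 7.63, 7.19, 7.87 and 6.85 in female and 6.85, 7.28, 7.30 and 5.72 in male cs-ERα−/− hearts, against 5.25, 5.88, 5.61 and 5.64 in female and 5.77, 5.54, 6.07 and 5.82 in male WT hearts. Of the 8 cs-ERα−/− hearts 7 lay above every WT heart, and male replicate 4 lay within the WT range. It rose by 1.39 (standard error 0.18, adjusted p = 7.64e-05 from limma) while its paralog Atp2a2 differed by -0.02 and 0.07. The Atp2a2 probes lie at the top of the signal range, where saturation cannot be separated from a flat level. Of 18 tested genes of kinases, anchors and phosphatases, among them the calcium-calmodulin kinases and calcineurin, 0 passed for genotype (4 probes at an unadjusted p under 0.05); the nearest were Rcan1, a calcineurin inhibitor (0.15, adjusted p = 0.1), Camk2a (-0.17, adjusted p = 0.137) and the phosphodiesterase Pde3a (-0.26, adjusted p = 0.187, all from limma). Cacna1c, the pore of the L-type channel, had a probe at -0.31 (standard error 0.10, adjusted p = 0.0735 from limma) and another at 0.12 (standard error 0.10, adjusted p = 0.576).

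For sex, 2 of the 74 probes passed, both lower in females, where 0.629% of all tested probes were. Tmem38a, the TRIC-A potassium channel of the sarcoplasmic reticulum, read 11.70, 11.75, 11.86 and 11.78 in cs-ERα−/− and 11.86, 11.74, 12.04 and 11.84 in WT females, against 11.89, 11.89, 11.93 and 11.94 in cs-ERα−/− and 12.05, 12.11, 12.05 and 12.11 in WT males. It fell by 0.18 in females (standard error 0.04, adjusted p = 0.0286 from limma). Its genotype difference of -0.13 did not pass (adjusted p = 0.0678), though it did without female WT replicate 2 (0.0295). Camk2b, a calcium-calmodulin kinase subunit, was at 8.38 ± 0.13 in females and 8.70 ± 0.19 in males (SD, n = 8 each) and fell by 0.32 in females (standard error 0.08, adjusted p = 0.0349 from limma). Neither call was firm. That of Tmem38a ended without any 1 of 8 arrays (male WT replicates 2 and 4, female WT replicates 1, 2 and 4, male cs-ERα−/− replicate 4, and female cs-ERα−/− replicates 1 and 2), with an adjusted p of up to 0.0664, and that of Camk2b without any 1 of 8 arrays (male WT replicates 2 and 4, female WT replicates 3 and 4, male cs-ERα−/− replicates 1 and 4, and female cs-ERα−/− replicates 3 and 4), with up to 0.0891. With median scaling they were at 0.865 and 0.422, in ranges of 0.0216 to 0.865 and 0.0332 to 0.422 over 8 alternatives each.

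**Figure D5:**
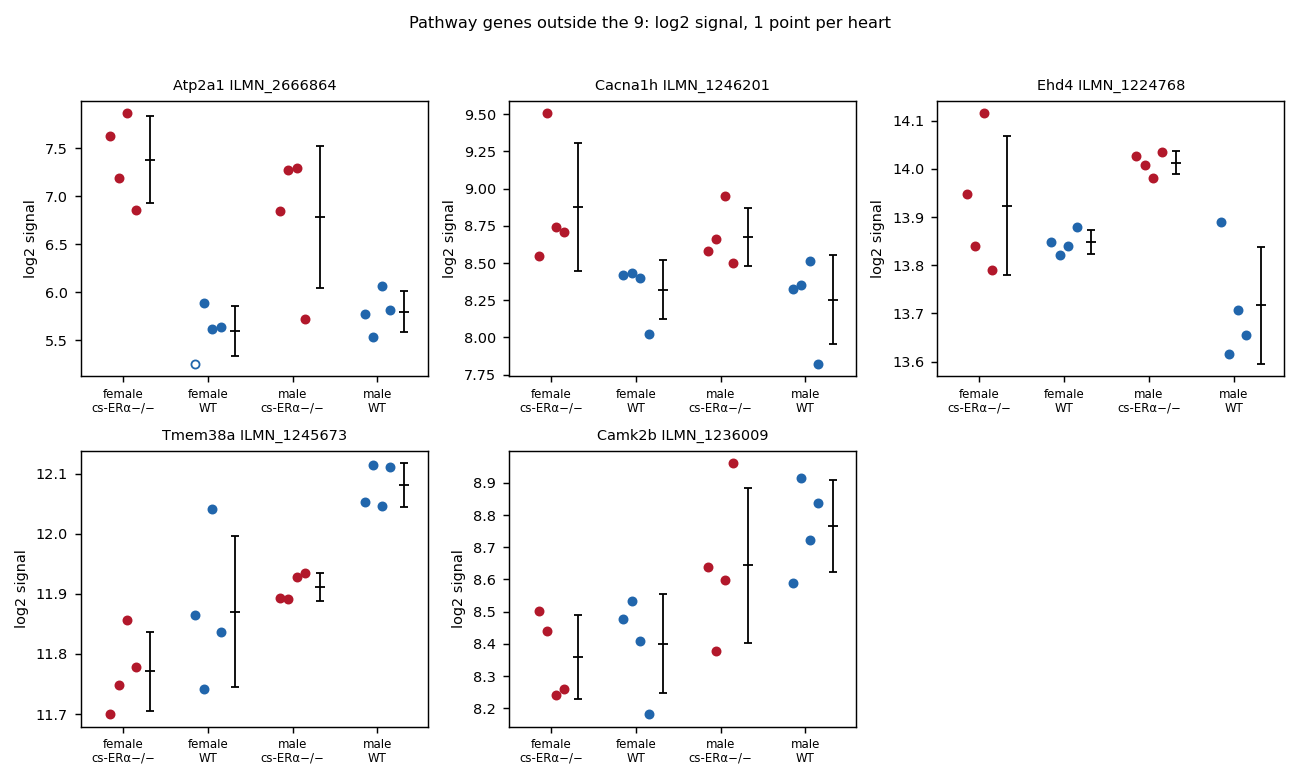
Log2 signal of the 5 pathway probes that passed for genotype (Atp2a1, Cacna1h, Ehd4) or for sex (Tmem38a, Camk2b) in the 4 groups, 1 point per heart, filled where detected, with the mean ± SD of 4 hearts. Of the cs-ERα−/− hearts, 7 of 8 lie above all WT hearts for Atp2a1, and both sex differences are lower in females (-0.18 and -0.32).

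The samples were cardiac tissue of many cell types, where fewer cells of a type and less RNA per cell cannot be told apart. Markers of cardiomyocytes were bright on every array, with a mean log2 signal over 10 probes of 14.41 to 14.62 in cs-ERα−/− mice and 14.47 to 14.55 in WT mice. Of these 8 genes, 0 passed for genotype, and saturation at such signals was not tested. Other markers moved with genotype beside the differences above. In their lists 7 of 8 myeloid, 4 of 8 smooth muscle, 2 of 7 fibroblast, 2 of 5 fast skeletal muscle and 1 of 6 atrial probes passed as higher, against 2.43% of all tested probes. The lists were chosen with earlier results of these data known. They hold genes that the paper reports for genotype, among them Lyz2, C1qb, Mybpc2 and Nppa. These shares are therefore a description and not a test of the cell types. Of 5 tested myeloid genes 4 rose (mean signal of the list 9.05 to 9.50 in cs-ERα−/− mice and 8.42 to 8.96 in WT mice), as did 1 of 3 of smooth muscle, Acta2 at 4 probes (9.43 to 9.89 and 9.21 to 9.64), and 1 of 5 of fibroblasts, Dcn (8.74 to 8.97 and 8.49 to 8.79), while 0 of 6 of endothelium did (8.71 to 9.16 and 8.91 to 9.19). Of 5 tested fast skeletal muscle genes, Tnni2 (0.68, adjusted p = 0.00218 from limma) and Mybpc2 (0.87, adjusted p = 8.1e-08) rose with Atp2a1 (7.78 to 8.42 and 7.57 to 8.01), and Myh1, Myh4, Actn3, Tnnt3 and Tnnc2 were not detected often enough to be tested. Of 4 tested atrial genes, Nppa rose by 1.02 with genotype (adjusted p = 3.03e-06 from limma) and Dkk3 was higher in females (1.23 and 1.30 at 2 probes, adjusted p = 0.000258 and 0.000236), with a mean level of the list of 8.43 to 8.91 in 7 female hearts, 10.21 in female cs-ERα−/− replicate 4 and 8.07 to 8.56 in males. In that heart the Dkk3 probes read 9.24 and 8.53, where no other heart was above 7.87 and 7.16. Sln and Myl7 were not detected often enough to be tested, nor was Bmp10, which was not detected in that heart either. The part of these cells in the calcium gene differences was not tested.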

How the data were processed

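Cardiac RNA of 16 mice was measured on 1 array each, in 4 groups of 4 by sex and genotype. The authors averaged bead replicates in Genome Studio, and the deposited non-normalized signal is an intensity on a linear scale that falls below 0, so background had been subtracted. The deposited p-value beside it is the detection p-value of that probe and array. The authors' normalized values are deposited as intensity after a cubic spline, linear although the methods name a log2 export. The labels do not name the BeadChip, so the batch term of the methods could not be fitted. The labels do not say whether replicate numbers mark litters or chips.

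Signals were background-corrected and quantile-normalized on the log2 scale with neqc (offset 16) of limma 3.58.1 in R 4.3.3. Of 25697 probes, 12246 were tested, those whose detection p was under 0.05 in 3 or more of the 4 mice of some group. Median deposited signals per array were 17.2 to 25.6, 11492 to 12610 probes were detected, arrays correlated at 0.988 to 0.995, and the number of arrays limits the precision. One linear model of the 4 group means, with an intensity trend, gave the genotype, sex and interaction effects, with Benjamini-Hochberg adjustment over all tested probes and a threshold of 0.05. The fit was tested on simulated data with known changes.

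The genes and lists were chosen with earlier results of these data known. From each list outside the 9 genes, called probes are named, or with none called up to 4 with the smallest p; Cacna1c, the Atp2a2 paralog, Myl4 and marker genes below detection were named after their values were seen. Likeness was ranked by Pearson's r over 16 arrays. Alternatives were the authors' spline values, no background correction, median scaling, no detection filter, a filter on every group (10956 probes), no intensity trend, an ordinary linear model, the replicate number as a block, and leaving out each array. Promoter windows and gene positions came from RefSeq (GRCm38.p6). The microarray paper's echocardiography, serum and qRT-PCR data are not analysed here. Figures were drawn with matplotlib in Python 3.11.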

Additional observations from a re-analysis of the deposited data

Results flagged for a closer look

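In groups of 4 hearts, the lowest or highest heart stood apart from the others, by Dixon's test at the 95% level, in 8 of 76 combinations of a probe and a group, where chance gives about 1 in 20. For Asph, the single hearts were female cs-ERα−/− replicate 4 at 8.55 for ILMN_1233759 (the others 8.76 to 8.79), male cs-ERα−/− replicate 1 at 5.19 for ILMN_2741446 (the others 5.54 to 5.60), female WT replicate 3 at 5.48 for ILMN_2609988 (the others 5.15 to 5.21) and female cs-ERα−/− replicate 1 at 5.22 for ILMN_2610012 (the others 5.53 to 5.58). For Jph2 ILMN_2628876, female cs-ERα−/− replicate 2 was high at 7.52 (the others 7.26 to 7.30). Male WT replicate 4 was low for Casq2 at 12.10 (the others 12.40 to 12.41), female WT replicate 4 was low for Atp2a2 ILMN_1245425 at 15.45 (the others 15.65 to 15.67), and female WT replicate 1 was low for Pln at 11.75 (the others 12.00 to 12.04). No array appears more than 1 time in this list.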

How the results depend on the processing

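Over all tested probes, 458 passed for genotype, 155 for sex, 0 for the interaction, 87 for genotype in females and 117 in males. Median scaling gave 131 for genotype (101 higher and 30 lower, 77.1% higher in place of 65.1%), 79 for sex, 31 in females and 46 in males. Moderation without the trend gave 32 in females and 56 in males, and the ordinary linear model 80 for sex, 26 in females and 38 in males. Leaving out 1 array gave 341 to 459 for genotype, 109 to 210 for sex, 0 to 0 for the interaction, 35 to 95 in females and 54 to 128 in males. In females the count was 35 without female WT replicate 1 and 39, 50 and 47 without female cs-ERα−/− replicates 1, 2 and 3, and in males it was 54 and 68 without male WT replicates 2 and 4 and 68 and 77 without male cs-ERα−/− replicates 2 and 3. The cause was not tested. No called difference of the 5 pathway probes turned direction; for the other probes outside the 9 genes, counts alone were compared. The labels do not say what a replicate number marks. Same-numbered hearts of the 2 genotypes had an r of -0.11 to 0.20 between their deviations from the group means, over 0.1 in 2 of 8 pairs, while 9 of 16 arrays correlated best with an array of their own number, which 3 of the 12 arrays in other groups carry. The replicate number as a block gave 537 for genotype. Signal over background limits ILMN_2610012 and ILMN_2594584 of Asph, and saturation cannot be separated from a flat level for Atp2a2.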
